A study of Homo sapiens with 24 samples.

Results

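The expression of 10 amino acid transporters was followed in 4 human lines of T-ALL, a leukaemia of immature T cells, after treatment with NVS-ZP7-3 or with DMSO, the solvent. The 10 genes, SLC7A11, SLC7A5, SLC3A2, SLC1A5, SLC1A4, SLC38A1, SLC38A2, SLC7A1, SLC7A2 and SLC43A1, were taken by name from the 19775 genes that had an array probe set of their own, and each was read from its brightest probe set. The 8 groups were TALL-1, RPMI-8402, P12-ICHIKAWA and SUPT11, each with NVS-ZP7-3 for 16 h and each with DMSO alone, with 3 arrays per group and 24 in all. DMSO was kept at 0.5% in every culture, with or without the compound, and compound was added on the day of plating. The labels give no dose, no target and no word on whether the 3 samples of a group were separate cultures, so the spread behind each p-value is that of 3 samples and could be technical alone. NVS-ZP7 compounds are known as blockers of SLC39A7 (ZIP7), which moves zinc out of the endoplasmic reticulum. Each line is a single established leukaemia line grown alone, with no normal T cell beside it.

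Amino acid transporters of the plasma membrane set which amino acids a cell can take up and which it must give up in exchange. SLC7A11 and SLC7A5 are light chains that reach the membrane only when linked to the heavy chain SLC3A2 (CD98): the first exchanges intracellular glutamate for cystine, the precursor of glutathione, and the second exchanges intracellular glutamine for leucine and other large neutral amino acids. SLC1A5 and SLC1A4 carry small neutral amino acids with sodium, SLC38A1 and SLC38A2 carry glutamine and alanine with sodium, SLC7A1 and SLC7A2 carry arginine and lysine, and SLC43A1 lets branched-chain amino acids through by facilitated diffusion. T cells raise several of these transporters when they begin to divide, and the transcription factor ATF4, which is translated when amino acids run short or the endoplasmic reticulum is stressed, is known to switch on many of the genes.

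Values are log2 expression as the authors deposited it. On this scale undetected probe sets lie at a floor of 2.18 and the brightest on each array at 16.1 to 16.2. A change is the mean with NVS-ZP7-3 minus the mean with DMSO in log2 units, and 1 unit is a doubling. Changes were tested with limma over 10661 genes and called at an adjusted p (Benjamini-Hochberg) below 0.05. The 14 T lineage markers were in place: 10 to 13 of them lay at log2 4 or more on all 3 arrays of every group. Of 8 fibroblast and epithelial markers, 0 or 1 did. Arrays of a group correlated at 0.993 to 0.998 across genes, which are not independent replicates. In each line, some genes lay near the floor on most arrays but were bright in another line. On 3 arrays, termed flagged below, more of these genes were raised. They were the second NVS-ZP7-3 array of TALL-1 (28 of 526 such genes), the second NVS-ZP7-3 array of SUPT11 (17 of 289) and the third DMSO array of RPMI-8402 (23 of 267). Each of the other 21 arrays had at most 3. Where these transcripts came from was not tested. HBB, an erythroid gene, was at log2 4 or more on 11 arrays, among them all 3 NVS-ZP7-3 arrays of P12-ICHIKAWA (11.45, 8.17 and 7.96) and none of its DMSO arrays (2.18 to 2.29). In RPMI-8402 HBB read 10.48, 8.63 and 12.99 with NVS-ZP7-3, against 9.42, 2.32 and 14.65 with DMSO. HBB and LYZ, a myeloid gene, read 14.65 and 12.54 on the flagged RPMI-8402 array. They read 10.61 and 6.95 on the flagged SUPT11 array, and 2.18 and 2.19 on the flagged TALL-1 array. The 3' minus 5' signal of ACTB, a measure of how far the RNA is intact, was higher with NVS-ZP7-3 than with DMSO by 0.487 in TALL-1 and by 0.302 in RPMI-8402 (exact permutation test, two-sided p = 0.1 for each, the smallest that 3 against 3 arrays can give). The difference was 0.0439 in P12-ICHIKAWA and 0.048 in SUPT11. The same signal of GAPDH did not show the shift. It differed by 0.00228 in TALL-1 and by 0.0425 in RPMI-8402 (exact permutation test, two-sided p = 0.9 and 0.4). In P12-ICHIKAWA it differed by -0.0307 and in SUPT11 by 0.026. In RNA from whole cultures, a change in the mixture of cells and a change in RNA per cell cannot be told apart.

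The transporters moved mostly in TALL-1 and RPMI-8402, and mostly upward. They were chosen with earlier results of these data known, so their counts beside the shares of all tested genes are a description. In TALL-1, 8 of the 10 rose and none fell, where 22.3% of all tested genes rose, 19.6% fell and 41.9% were called. In RPMI-8402, 8 rose and SLC7A2 fell, where 15.1% of tested genes rose, 21.5% fell and 36.6% were called. In P12-ICHIKAWA, SLC7A11 rose and SLC1A4 fell, where 4.91% of tested genes rose, 2.98% fell and 7.89% were called. In SUPT11, SLC7A11, SLC1A4 and SLC43A1 rose, where 1.18% of tested genes rose, 0.582% fell and 1.76% were called. Averaged over the lines, 8 rose, SLC7A2 fell and SLC43A1 was not called (0.24 ± 0.12, adjusted p = 0.111), where 22.4% of tested genes rose, 24.5% fell and 46.9% were called. The average of SLC7A2 comes from RPMI-8402 alone, since all arrays of the other lines lay at the floor. The median change of the 10 was 0.27 in TALL-1, 0.62 in RPMI-8402, 0.1 in P12-ICHIKAWA and 0.16 in SUPT11, beside medians of 0, -0.02, 0 and 0 over all tested genes. SLC7A2 and SLC43A1 passed the filter on low values through 1 line each, with 4 and 6 arrays at log2 4 or more, and the 4 of SLC7A2 include all 3 DMSO arrays of RPMI-8402, so its fall there is a description. The other 8 were at log2 4 or more on all 24 arrays.

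With each array centred on its median, 5 of the 10 were called in TALL-1, all higher, and the balance over all tested genes there turned to 19.1% higher and 23.9% lower, with 42.9% called. With the ACTB signal difference as a covariate 5 were called in TALL-1, where 15.3% of tested genes were higher, 14.9% lower and 30.3% called. SLC1A4, SLC38A2 and SLC7A1 lost their calls in both, and SLC7A11, SLC7A5, SLC3A2, SLC1A5 and SLC38A1 held theirs. In RPMI-8402, SLC38A2 lost its call in both settings. The count in SUPT11 was 1 without the first DMSO array or the third NVS-ZP7-3 array of SUPT11, and SLC43A1 lost its call there in 23 of the 24 fits that left out 1 array.

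**Figure D1:**
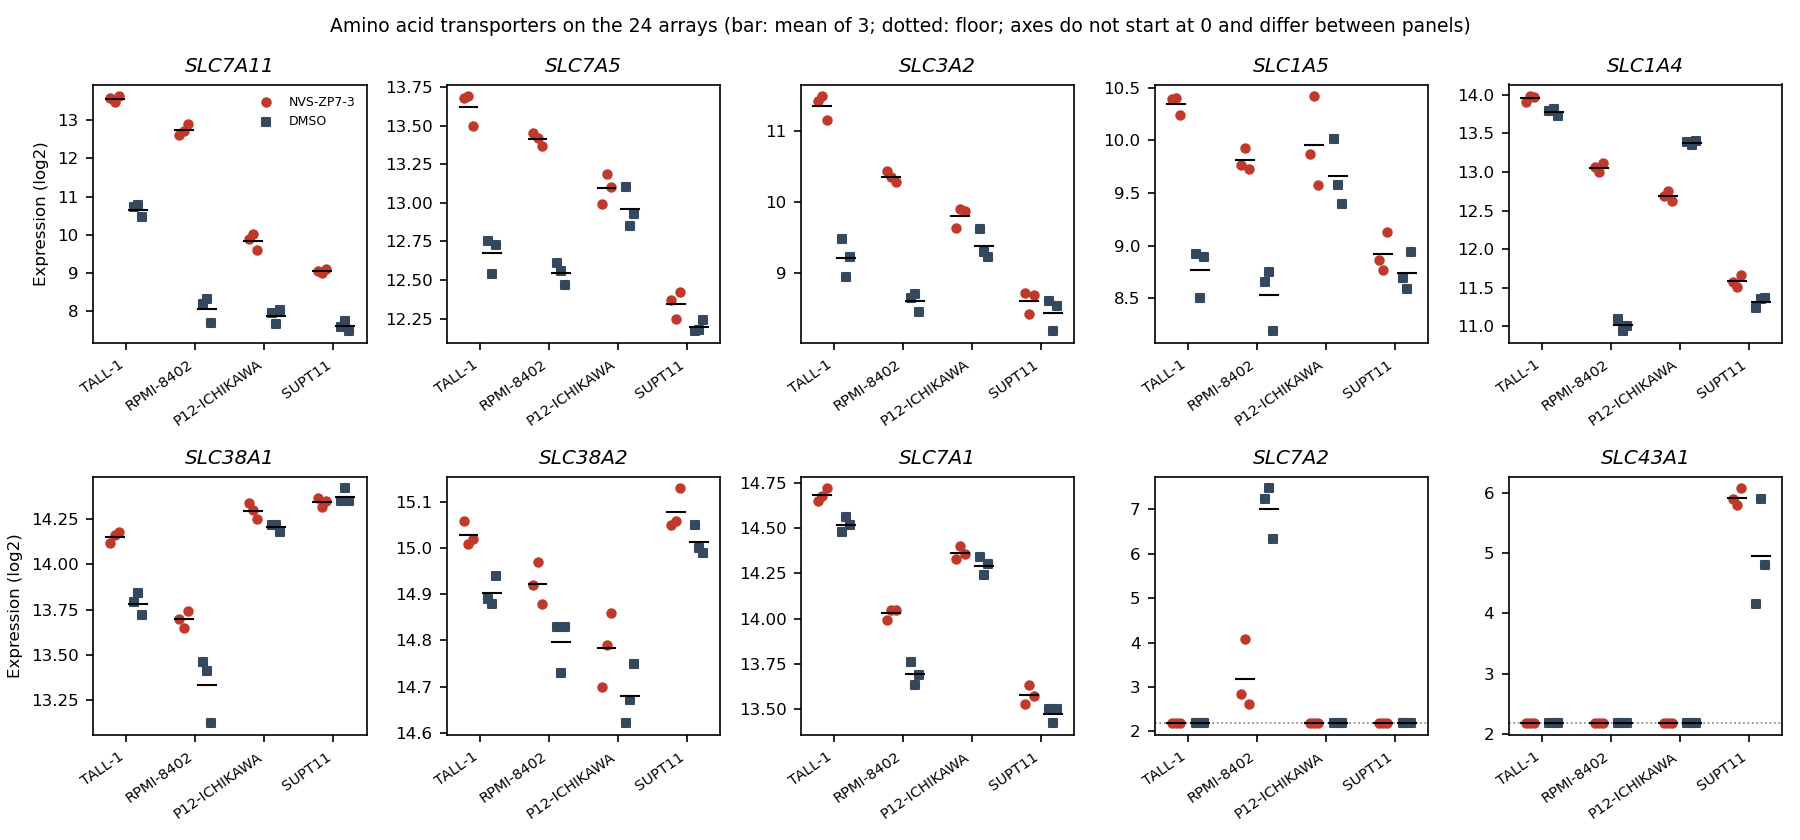
Expression (log2) of the 10 transporters on all 24 arrays, by line, with NVS-ZP7-3 (red circles) left of DMSO (blue squares), bars at the mean of 3 and the floor of 2.18 dotted where a gene reaches it; axes do not start at 0 and differ between panels. SLC7A11 with NVS-ZP7-3 lies above DMSO in all 4 lines, SLC1A4 lies above it in RPMI-8402 and below it in P12-ICHIKAWA, and SLC7A2 is off the floor in RPMI-8402 alone.

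**Figure D2:**
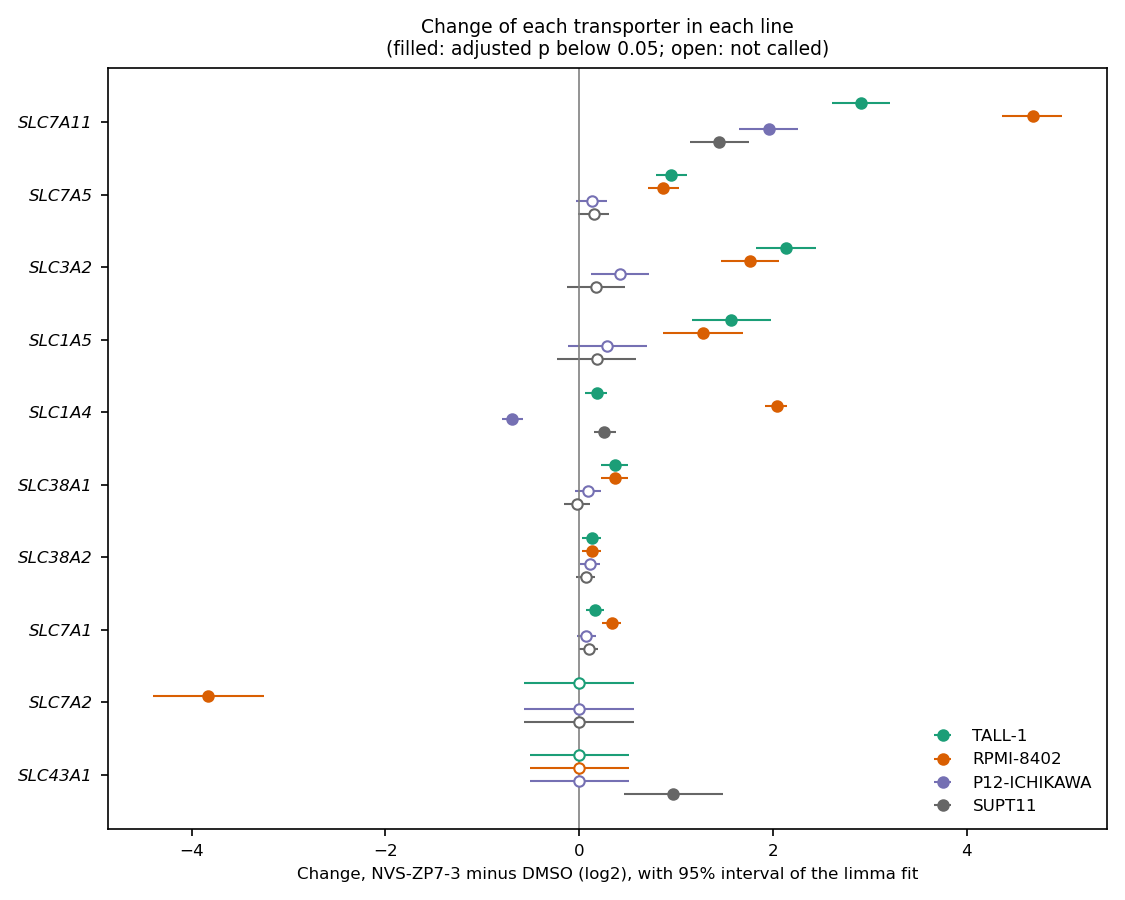
Change of each transporter in each line (NVS-ZP7-3 minus DMSO, log2) with the 95% interval of the limma fit; filled points have an adjusted p below 0.05. SLC7A11 spans 1.44 in SUPT11 to 4.68 in RPMI-8402, SLC1A4 spans -0.69 in P12-ICHIKAWA to 2.04 in RPMI-8402, and SLC7A2 fell by 3.83 in RPMI-8402. On probe set 4 in brightness SLC1A4 changed by 0.06 in P12-ICHIKAWA and by -0.39 in SUPT11, and on set 3 by -0.03 in TALL-1, none of them called.

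Promoter sequence was compared among the transporters, since most rose together in TALL-1 and RPMI-8402 and ATF4 is known to act on many of them through a composite element shared with its C/EBP partners. RefSeq windows (GRCh38.p14) from 250 bases before to 50 bases after an annotated start were searched on both strands for TGATGNAA, the composite element. Of the 10 genes, 8 had windows, 15 in all, and SLC7A11 and SLC7A2 were not among them. TGATGNAA was found in 5 of the 15 windows, in SLC1A4, SLC1A5, SLC38A1, SLC3A2 and SLC7A1, against 3.62% of all 35116 windows and 4.46% of 27305 genes. The antioxidant element through which NRF2 acts, written TGACNNNGC, was found in 4 of the 15 windows, in SLC1A5, SLC3A2, SLC7A1 and SLC7A5, against 13.3% of all windows. CACGTG, the E-box that MYC binds, was found in 3 of them, in SLC43A1, SLC7A5 and SLC1A5, against 7.26%. The endoplasmic reticulum stress element (ERSE) was in none of the 15 and in 0.0769% of all windows. A match is a description of the letters and not a site of binding. The windows printed here run from 250 bases before to 30 bases after the start, 5′ to 3′ on the strand of the gene, and capitals mark the matches. SLC1A4 is at chr2:64989149-64989428 on the plus strand, with TGATGNAA on the other strand 7 bases before the start. SLC1A5 is at chr19:46784785-46785064 on the minus strand, at the most downstream of its 3 starts, with TGATGNAA 97 bases before it. SLC3A2 is at chr11:62881449-62881728 on the plus strand, with TGACNNNGC 37 bases before the start and TGATGNAA 38 bases after it, beyond the bases shown. SLC7A1 is at chr13:29595659-29595938 on the minus strand, with TGACNNNGC 85 bases before the start and TGATGNAA 8 bases after it.
SLC1A4: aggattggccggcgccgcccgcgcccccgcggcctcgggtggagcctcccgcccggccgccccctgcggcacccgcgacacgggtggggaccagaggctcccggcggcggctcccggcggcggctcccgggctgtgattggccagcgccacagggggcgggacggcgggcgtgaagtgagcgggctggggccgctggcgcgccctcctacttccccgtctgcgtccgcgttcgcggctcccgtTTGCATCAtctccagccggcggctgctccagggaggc
SLC1A5: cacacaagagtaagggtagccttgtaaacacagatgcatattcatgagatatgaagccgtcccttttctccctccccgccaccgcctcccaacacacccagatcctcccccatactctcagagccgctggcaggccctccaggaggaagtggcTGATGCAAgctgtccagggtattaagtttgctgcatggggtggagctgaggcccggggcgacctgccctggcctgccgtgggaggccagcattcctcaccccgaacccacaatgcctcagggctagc
SLC3A2: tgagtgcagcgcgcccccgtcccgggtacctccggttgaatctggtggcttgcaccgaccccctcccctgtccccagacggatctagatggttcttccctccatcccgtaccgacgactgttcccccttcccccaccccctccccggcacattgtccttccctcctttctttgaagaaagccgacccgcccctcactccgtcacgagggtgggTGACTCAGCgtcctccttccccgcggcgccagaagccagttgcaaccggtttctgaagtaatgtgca
SLC7A1: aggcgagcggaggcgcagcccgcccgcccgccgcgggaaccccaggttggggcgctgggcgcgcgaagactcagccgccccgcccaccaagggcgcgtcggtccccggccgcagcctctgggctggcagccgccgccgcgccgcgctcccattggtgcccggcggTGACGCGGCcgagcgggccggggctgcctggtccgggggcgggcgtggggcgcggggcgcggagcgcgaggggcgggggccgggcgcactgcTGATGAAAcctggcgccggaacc

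SLC1A4, SLC1A5, SLC3A2 and SLC38A1 each carry TGATGNAA at 1 of several annotated starts, and the arrays do not tell which start was used. Genes with and without the element rose in TALL-1 and RPMI-8402. SLC7A5 had no match to TGATGNAA in its window and rose in both, and SLC38A1, with a match 4 bases before a start, rose in both as well.

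SLC7A11, the cystine and glutamate exchanger, rose in all 4 lines, most in RPMI-8402. In RPMI-8402 it read 12.62, 12.72 and 12.90 with NVS-ZP7-3, against 8.19, 8.33 and 7.69 with DMSO. In TALL-1 it read 13.58, 13.49 and 13.63 with NVS-ZP7-3, against 10.74, 10.77 and 10.46 with DMSO. No NVS-ZP7-3 array of a line overlapped its DMSO arrays, and TALL-1 started from the highest level. In P12-ICHIKAWA the values were 9.89, 10.02 and 9.61 with NVS-ZP7-3, against 7.95, 7.66 and 8.04 with DMSO. In SUPT11 they were 9.05, 8.99 and 9.11 with NVS-ZP7-3, against 7.59, 7.74 and 7.48 with DMSO. The level with the compound in SUPT11 stayed below the DMSO level of TALL-1.

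The rise of SLC7A11 was 4.68 ± 0.14 (SE) in RPMI-8402, a factor of 25.6 (limma, adjusted p = 1.81e-14). It was 2.91 ± 0.14 in TALL-1 (7.52-fold, adjusted p = 2.15e-11), 1.96 ± 0.14 in P12-ICHIKAWA (3.88-fold, adjusted p = 4.09e-08) and 1.44 ± 0.14 in SUPT11 (2.72-fold, adjusted p = 5.56e-06). The size of the rise differed between lines (F test of the interaction, adjusted p = 4.3e-09, where 35.8% of tested genes were called). Between pairs of lines, 23.6% of tested genes differed in their change between TALL-1 and RPMI-8402, 21.2% between TALL-1 and P12-ICHIKAWA, 26.7% between TALL-1 and SUPT11, 14.4% between RPMI-8402 and P12-ICHIKAWA, 17.4% between RPMI-8402 and SUPT11, and 1.82% between P12-ICHIKAWA and SUPT11. For SLC7A11, RPMI-8402 exceeded TALL-1 by 1.77 (the change in TALL-1 minus that in RPMI-8402 was -1.77, adjusted p = 4.7e-06), P12-ICHIKAWA by 2.72 (adjusted p = 2.9e-08) and SUPT11 by 3.23 (adjusted p = 2.05e-09). TALL-1 exceeded P12-ICHIKAWA by 0.95 (adjusted p = 0.00224). The difference between P12-ICHIKAWA and SUPT11 was not called (0.51, 95% interval 0.08 to 0.94, adjusted p = 0.328). Its interval, which is not adjusted for the number of genes, holds positive values only.

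A second SLC7A11 probe set gave nearly the same changes, 3.11 in TALL-1, 4.61 in RPMI-8402, 1.89 in P12-ICHIKAWA and 1.53 in SUPT11. The dimmest set gave 4.19 in TALL-1 and 1.3 in RPMI-8402, with its DMSO arrays at the floor in both. In the other 2 lines all its arrays lay at the floor, where it could show no change. Without the 3 flagged arrays, the rise was 2.95 in TALL-1 and 4.49 in RPMI-8402. With the ACTB signal difference as a covariate it was 2.75 in TALL-1 and 4.58 in RPMI-8402. DDIT3 and CHAC1, stress genes downstream of ATF4, changed most like SLC7A11 among all other tested genes: over the 4 changes the Euclidean distance was 1.3 for CHAC1, 1.36 for DDIT3 and 1.37 for P2RX7, an ATP-gated channel. CHAC1, whose enzyme breaks down glutathione, changed by 3.88 in TALL-1, 5.18 in RPMI-8402, 1.81 in P12-ICHIKAWA and 0.76 in SUPT11. The changes of DDIT3 were 3.28, 4.56, 2.71 and 2.51 in the same order. ATF4 itself rose by 0.55 in TALL-1, 0.53 in RPMI-8402 and 0.2 in P12-ICHIKAWA, and changed by 0.11 in SUPT11, where it was not called (adjusted p = 0.215). NFE2L2, which encodes the oxidative stress factor NRF2 and is also known to act on SLC7A11, rose by 0.45 in TALL-1 and 0.46 in RPMI-8402, and was not called in P12-ICHIKAWA (0) or SUPT11 (0.08).

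**Figure D3:**
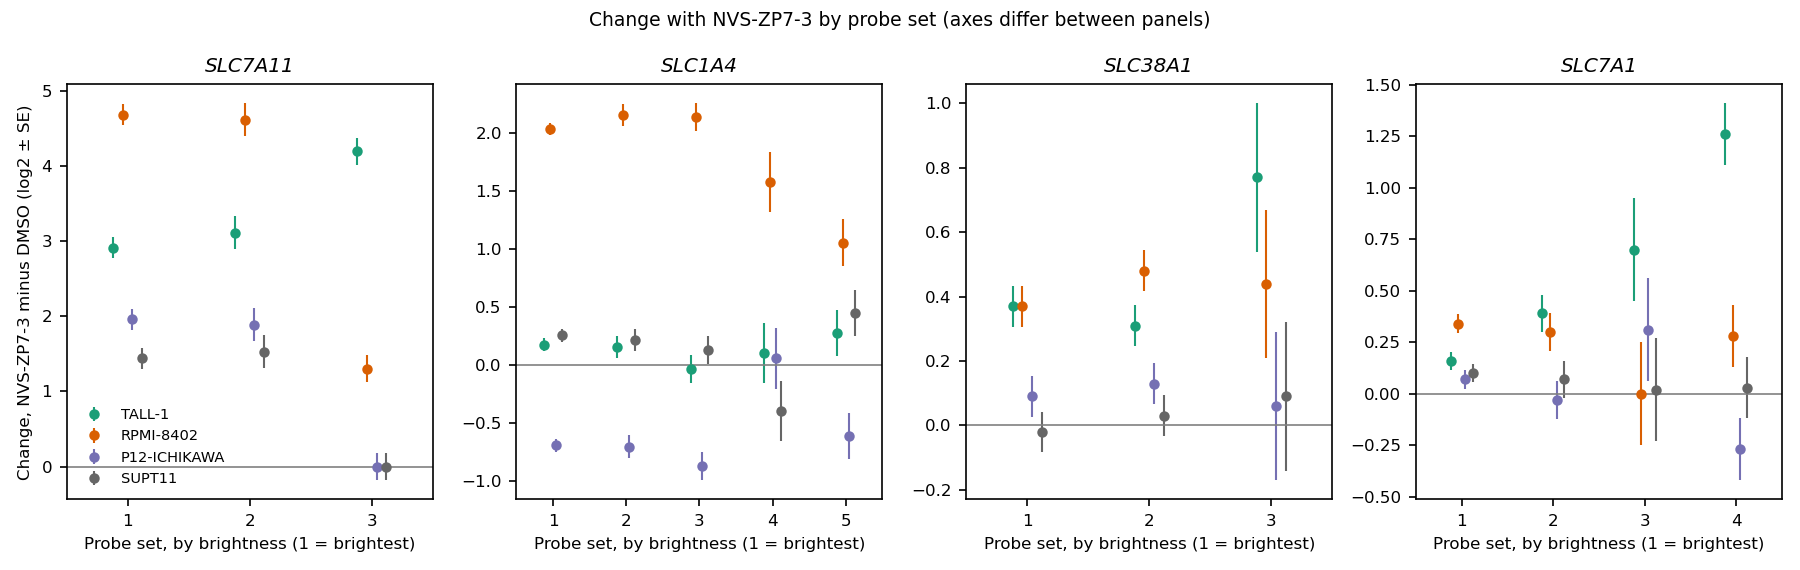
Change (NVS-ZP7-3 minus DMSO, log2 ± SE of the limma fit) by probe set for SLC7A11, SLC1A4, SLC38A1 and SLC7A1, ordered from the brightest (1) to the dimmest. SLC38A2 also has several informative sets, which are not shown. The 2 brightest SLC7A11 sets lie together in all 4 lines, SLC1A4 in RPMI-8402 lies above 1 on all 5 sets, and SLC7A1 in TALL-1 is 0.16 on the brightest set and 1.26 on set 4; SLC1A4 turns sign on set 4 in P12-ICHIKAWA and SUPT11 and on set 3 in TALL-1.

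SLC3A2, the heavy chain that SLC7A11 and SLC7A5 both need, rose in TALL-1 and RPMI-8402. In TALL-1 it read 11.43, 11.49 and 11.15 with NVS-ZP7-3, against 9.49, 8.95 and 9.23 with DMSO. In RPMI-8402 it read 10.44, 10.35 and 10.29 with NVS-ZP7-3, against 8.65, 8.71 and 8.46 with DMSO. The groups stood well apart in both lines, with changes of 2.14 ± 0.14 (4.39-fold, limma adjusted p = 1.11e-09) in TALL-1 and 1.76 ± 0.14 (3.38-fold, adjusted p = 1.87e-08) in RPMI-8402. In P12-ICHIKAWA the values were 9.64, 9.90 and 9.88 with NVS-ZP7-3, against 9.63, 9.30 and 9.23 with DMSO. These groups touched without overlapping, and the change of 0.42 ± 0.14 missed the threshold (adjusted p = 0.0875); without the first DMSO array of P12-ICHIKAWA it was 0.54 (adjusted p = 0.0418). In SUPT11 the arrays overlapped, and SLC3A2 changed by 0.17 ± 0.14 (adjusted p = 0.981). The change in TALL-1 exceeded that in P12-ICHIKAWA by 1.72 (adjusted p = 6.06e-06) and that in SUPT11 by 1.97 (adjusted p = 1.04e-06), and did not differ detectably from that in RPMI-8402 (0.38, 95% interval -0.05 to 0.8, adjusted p = 0.196). With the ACTB covariate the rise was 1.71 in TALL-1 and 1.49 in RPMI-8402. The genes that changed most like SLC3A2 were TM7SF2, a sterol reductase (distance 0.257), SLC10A7 (0.35) and RRBP1, a protein of the ribosome-bearing endoplasmic reticulum (0.358).

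SLC7A5, the light chain for leucine, has 1 probe set and rose in TALL-1 and RPMI-8402. TALL-1 arrays read 13.68, 13.69 and 13.50 with NVS-ZP7-3, against 12.75, 12.54 and 12.73 with DMSO. RPMI-8402 arrays read 13.45, 13.42 and 13.37 with NVS-ZP7-3, against 12.61, 12.56 and 12.47 with DMSO. The rises were 0.95 ± 0.076 (1.93-fold, limma adjusted p = 1.18e-08) in TALL-1 and 0.87 ± 0.076 (1.83-fold, adjusted p = 4.75e-08) in RPMI-8402, and the lines did not differ detectably in it (0.08, 95% interval -0.15 to 0.3, adjusted p = 0.659). In P12-ICHIKAWA SLC7A5 averaged 13.10 ± 0.1 with NVS-ZP7-3 and 12.96 ± 0.13 with DMSO (SD, n = 3 arrays each), overlapping groups with a change of 0.13 ± 0.076 (limma adjusted p = 0.36). In SUPT11 all NVS-ZP7-3 arrays lay just above the DMSO arrays, at 12.35 ± 0.087 against 12.2 ± 0.038 (SD, n = 3 arrays each), and the change of 0.15 ± 0.076 was not called (limma adjusted p = 0.656). All 4 differences between one of the responding lines and one of the other lines passed the test, at 0.72 to 0.81. MYC, a known activator of SLC7A5, fell in those lines, by 1 in TALL-1 and by 1.37 in RPMI-8402, and was not called in P12-ICHIKAWA (-0.07) or SUPT11 (-0.11).

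SLC1A5 and SLC1A4 are close relatives that exchange small neutral amino acids. SLC1A5, the main glutamine carrier of many dividing cells, rose in TALL-1, with 10.39, 10.40 and 10.24 with NVS-ZP7-3, against 8.92, 8.50 and 8.89 with DMSO. It rose in RPMI-8402 as well, with 9.77, 9.93 and 9.73 with NVS-ZP7-3, against 8.66, 8.75 and 8.19 with DMSO, of which the lowest came from the flagged array. The changes were 1.57 ± 0.2 (2.97-fold, limma adjusted p = 3.09e-06) in TALL-1 and 1.28 ± 0.2 (2.42-fold, adjusted p = 4.74e-05) in RPMI-8402. With the ACTB covariate the rise was 0.9 ± 0.24 (adjusted p = 0.00842) in TALL-1 and 0.86 ± 0.19 (adjusted p = 0.0024) in RPMI-8402. In P12-ICHIKAWA its arrays overlapped, at 9.87, 10.42 and 9.58 with NVS-ZP7-3, against 10.01, 9.58 and 9.40 with DMSO (change 0.29 ± 0.2, adjusted p = 0.463). In SUPT11 they overlapped too (change 0.18 ± 0.2, adjusted p = 1). The nearest genes over the 4 changes were HM13, a signal peptide peptidase (distance 0.191), WARS1, the tryptophanyl-tRNA synthetase (0.23), and MCTP1 (0.247).

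SLC1A4 rose in RPMI-8402 and fell in P12-ICHIKAWA. In RPMI-8402 it read 13.06, 13 and 13.11 with NVS-ZP7-3, against 11.10, 10.94 and 11.01 with DMSO. In P12-ICHIKAWA it read 12.69, 12.75 and 12.62 with NVS-ZP7-3, against 13.39, 13.35 and 13.40 with DMSO. Neither pair of groups overlapped, and the changes were 2.04 ± 0.054 (4.1-fold, limma adjusted p = 2.87e-15) in RPMI-8402 and -0.69 ± 0.054 (to 0.62 of the DMSO level, adjusted p = 8.19e-08) in P12-ICHIKAWA. In P12-ICHIKAWA, 1 erythroid marker (HBB) and 1 myeloid marker (LYZ) were also raised. Of 4 erythroid markers with a probe set 1 (HBB) lay at log2 4 or more on all 3 NVS-ZP7-3 arrays and 3 lay at the floor, with a summed level over the floor of 5.77 to 9.26 with NVS-ZP7-3 and 0 to 0.108 with DMSO. Of 9 myeloid markers 1 (LYZ) did and 8 lay at the floor, with sums of 3.32 to 5.82 with NVS-ZP7-3 and 0.0957 to 0.803 with DMSO. Such signal was not particular to P12-ICHIKAWA. In RPMI-8402 the erythroid sums were 6.45 to 10.8 with NVS-ZP7-3 and 0.14 to 23 with DMSO. The myeloid sums there were 2.73 to 8 and 0 to 20.7. With the HBB level as a covariate SLC1A4 changed by -0.69 ± 0.068 in P12-ICHIKAWA (adjusted p = 4.5e-06), and SLC7A11 by 2.12 ± 0.17 (adjusted p = 3.6e-07). RPMI-8402 had the lowest SLC1A4 of the 4 lines with DMSO, and its level with NVS-ZP7-3 was above that of P12-ICHIKAWA with NVS-ZP7-3. Small rises were called in TALL-1 (13.95 ± 0.037 with NVS-ZP7-3 and 13.78 ± 0.048 with DMSO, SD, n = 3 arrays each; change 0.18 ± 0.054, limma adjusted p = 0.0142) and in SUPT11 (11.59 ± 0.076 with NVS-ZP7-3 and 11.33 ± 0.074 with DMSO; change 0.26 ± 0.054, adjusted p = 0.0121). The range of the change over the lines, 2.73, was wider than in 99% of tested genes (F test of the interaction, adjusted p = 7.74e-14).

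Of the 5 SLC1A4 probe sets, all called the rise in RPMI-8402, at 2.04, 2.16, 2.14, 1.58 and 1.06 from the brightest to the dimmest. In P12-ICHIKAWA the fall was called by the 3 brightest (-0.69, -0.7 and -0.87) and not by the other 2 (0.06 and -0.61). The dimmest set lay low in both lines, where changes may be understated. It read 3.71 with NVS-ZP7-3 and 2.65 with DMSO in RPMI-8402, and 3.34 and 3.95 in P12-ICHIKAWA. The small rises in TALL-1 and SUPT11 were called by the brightest set alone, and other sets gave -0.03 in TALL-1 and -0.39 in SUPT11. Like SLC1A4 in its changes were FAM174B (distance 0.46), FASN, the fatty acid synthase (0.479), and the antisense transcript RUSC1-AS1 (0.581). FASN changed by 0.18 in TALL-1, 1.64 in RPMI-8402, -0.42 in P12-ICHIKAWA and 0.29 in SUPT11.

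SLC38A1 and SLC38A2, the sodium-coupled carriers of glutamine and alanine, changed little on their brightest probe sets. These sets lie near the top of the scale, at level percentiles of 95.4 and 98.9 among tested genes. Whether changes are understated at such levels was not tested. SLC38A1 rose in TALL-1 and RPMI-8402. It averaged 14.15 ± 0.03 with NVS-ZP7-3 and 13.78 ± 0.058 with DMSO in TALL-1 (SD, n = 3 arrays each; change 0.37 ± 0.063, limma adjusted p = 0.000113). It averaged 13.70 ± 0.046 with NVS-ZP7-3 and 13.33 ± 0.18 with DMSO in RPMI-8402 (SD, n = 3 arrays each; change 0.37 ± 0.063, limma adjusted p = 0.000165), and the change in RPMI-8402 was 0.26 without the 3 flagged arrays. It was not called in P12-ICHIKAWA (0.09 ± 0.063, adjusted p = 0.498) or SUPT11 (-0.02 ± 0.063, adjusted p = 1). The difference between lines passed the F test (adjusted p = 0.00283). A second probe set called the same lines (0.31 in TALL-1 and 0.48 in RPMI-8402), and the next in brightness called TALL-1 alone (0.77, against 0.44 in RPMI-8402, adjusted p = 0.146).

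SLC38A2 is known to be induced when cells are starved of amino acids, and here it lay at 14.62 to 15.13 on all arrays. With NVS-ZP7-3 it changed by 0.13 ± 0.048 in TALL-1 (limma adjusted p = 0.0411), 0.13 ± 0.048 in RPMI-8402 (adjusted p = 0.045), 0.11 ± 0.048 in P12-ICHIKAWA (adjusted p = 0.215) and 0.07 ± 0.048 in SUPT11 (adjusted p = 0.92). The 4 changes could not be told apart (F test of the interaction, adjusted p = 0.843), and their range of 0.06 was narrower than in all but 2.25% of tested genes. Its 2 other probe sets called none of the lines, with changes of 0.04 to 0.15. Averaged over the 4 lines the change was 0.11 ± 0.024 (adjusted p = 0.00128).

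SLC7A1, the widely expressed arginine and lysine carrier, rose slightly in 2 lines on its brightest probe set, which is also near the top of the scale (level percentile 95.7). It averaged 14.03 ± 0.034 with NVS-ZP7-3 and 13.69 ± 0.062 with DMSO in RPMI-8402 (SD, n = 3 arrays each; change 0.34 ± 0.045, limma adjusted p = 9.25e-06). It averaged 14.68 ± 0.039 with NVS-ZP7-3 and 14.52 ± 0.044 with DMSO in TALL-1 (SD, n = 3 arrays each; change 0.16 ± 0.045, limma adjusted p = 0.00661). The probe sets of SLC7A1 ranked these lines differently. From the brightest to the dimmest of the 4 sets that passed the filter, the change in TALL-1 was 0.16, 0.39, 0.7 and 1.26, all called, and in RPMI-8402 it was 0.34, 0.3, 0 and 0.28, with the last 2 not called. The dimmest of them lay near the floor in RPMI-8402 (2.62 with NVS-ZP7-3 and 2.34 with DMSO), so its 0.28 says little about the size there. SLC7A1 was not called in P12-ICHIKAWA (0.07 ± 0.045, adjusted p = 0.399) or in SUPT11 (0.1 ± 0.045, adjusted p = 0.541), although all NVS-ZP7-3 arrays of SUPT11 lay above its DMSO arrays.

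SLC7A2, the second carrier of arginine and lysine, was above the floor in RPMI-8402 alone, and it fell there on its brightest probe set. Its 2 other probe sets lay at 2.18 in every group, so level and fall rest on 1 set. On the brightest set the RPMI-8402 arrays read 2.84, 4.09 and 2.61 with NVS-ZP7-3, against 7.23, 7.47 and 6.33 with DMSO. No array overlapped, and the NVS-ZP7-3 values lay close to the floor. The change was -3.83 ± 0.27 (SE), given as a description since SLC7A2 passed the filter through the DMSO arrays, and any part of the fall below the floor is not seen. Without the 3 flagged arrays it was -4.17, and with the ACTB covariate -4.24. The lowest DMSO value came from the flagged array. In TALL-1, P12-ICHIKAWA and SUPT11 all arrays of both groups lay at 2.18, so no change could be measured.

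SLC43A1, the facilitated carrier of branched-chain amino acids, was measured above the floor in SUPT11 alone. Its arrays read 5.90, 5.79 and 6.07 with NVS-ZP7-3, against 4.16, 5.89 and 4.81 with DMSO. The groups overlapped, and the DMSO arrays alone ran from 4.16 to 5.89. The change of 0.97 ± 0.24 was called by a narrow margin (limma adjusted p = 0.0483). The call was lost in 23 of the 24 fits that left out 1 array, in which the change ran from 0.57 to 1.43, and in a fit of SUPT11 alone (adjusted p = 0.493). All other groups lay at 2.18.

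With DMSO alone the 8 transporters above log2 4 on all arrays differed among the 4 lines (F test, adjusted p below 0.05 in each), where 96.3% of tested genes did. SLC7A2 and SLC43A1 had to differ, since each passed the filter through the 1 line in which it is high. Between pairs of lines, 70.8% of tested genes differed between TALL-1 and RPMI-8402, 70.3% between TALL-1 and P12-ICHIKAWA, 78.9% between TALL-1 and SUPT11, 65.0% between RPMI-8402 and P12-ICHIKAWA, 79.7% between RPMI-8402 and SUPT11, and 77.4% between P12-ICHIKAWA and SUPT11. No single order of the lines held for all genes. SLC7A11 was highest in TALL-1 (10.66 ± 0.17, SD, n = 3 arrays), followed by RPMI-8402 (8.07 ± 0.34), P12-ICHIKAWA (7.88 ± 0.2) and SUPT11 (7.60 ± 0.13). In that order RPMI-8402 and P12-ICHIKAWA could not be told apart (difference 0.19, limma adjusted p = 0.273), nor could P12-ICHIKAWA and SUPT11 (0.28, adjusted p = 0.0876). SLC7A5 was highest in P12-ICHIKAWA (12.96) and lowest in SUPT11 (12.2), with TALL-1 (12.68) and RPMI-8402 (12.55) between them and not told apart (0.13, adjusted p = 0.134). SLC3A2 fell into 2 pairs, P12-ICHIKAWA (9.39) with TALL-1 (9.22) and RPMI-8402 (8.61) with SUPT11 (8.45). Within the pairs the lines did not differ detectably (TALL-1 minus P12-ICHIKAWA -0.16, adjusted p = 0.328; RPMI-8402 minus SUPT11 0.16, adjusted p = 0.327).

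SLC1A5 was highest in P12-ICHIKAWA (9.67), and TALL-1 (8.77), SUPT11 (8.74) and RPMI-8402 (8.53) could not be told apart. SLC1A4 ran from TALL-1 (13.78) through P12-ICHIKAWA (13.38) and SUPT11 (11.33) to RPMI-8402 (11.02), and all neighbours differed. SLC38A1 ran from SUPT11 (14.37) through P12-ICHIKAWA (14.21) and TALL-1 (13.78) to RPMI-8402 (13.33), again with all neighbours different. SLC7A1 ran from TALL-1 (14.52) through P12-ICHIKAWA (14.29) and RPMI-8402 (13.69) to SUPT11 (13.48), and all neighbours differed. SLC38A2 lay at 15.01 in SUPT11, 14.9 in TALL-1, 14.8 in RPMI-8402 and 14.68 in P12-ICHIKAWA. SLC7A2 (7.01 ± 0.6 in RPMI-8402) and SLC43A1 (4.96 ± 0.87 in SUPT11) were on in a single line each.

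Of 32 further plasma membrane transporters, 29 had a probe set and 9 passed the filter. In TALL-1 2 of the 9 rose and 1 fell, in RPMI-8402 1 rose and 2 fell, in P12-ICHIKAWA none was called, and in SUPT11 2 rose. The 3 called of 9 in TALL-1 and in RPMI-8402 stand beside 41.9% and 36.6% of all tested genes, no more than that background, and the 2 in SUPT11 beside 1.76%. SLC7A3, a further carrier of arginine and lysine, averaged 11.52 ± 0.17 with NVS-ZP7-3 and 10.21 ± 0.21 with DMSO in TALL-1 (SD, n = 3 arrays each; change 1.31 ± 0.17, limma adjusted p = 6.01e-06). It also rose in RPMI-8402, the line in which SLC7A2 fell, to 7.22 with NVS-ZP7-3 against 5.76 with DMSO (1.46 ± 0.17, adjusted p = 2.54e-06). In SUPT11 it averaged 8.66 with NVS-ZP7-3 and 7.85 with DMSO (0.81 ± 0.17, adjusted p = 0.0159). SLC6A15, a sodium-coupled carrier of branched-chain amino acids and proline, was on in RPMI-8402 alone. It fell there to 5.25 ± 0.76 with NVS-ZP7-3, against 7.64 ± 0.29 with DMSO (SD, n = 3 arrays each), and is among the 2 counted as falling there. The change of -2.39 ± 0.22 (SE) is given as a description, since SLC6A15 passed the filter through that line and lay at the floor in the others. SLC3A1, the heavy chain of the kidney cystine carrier and a relative of SLC3A2, rose in TALL-1 (9.69 with NVS-ZP7-3 and 8.55 with DMSO, change 1.14 ± 0.18, adjusted p = 4.21e-05). SLC7A8, a light chain related to SLC7A5, was on in SUPT11 alone and rose there (6.76 with NVS-ZP7-3 and 5.54 with DMSO, change 1.22 ± 0.13, adjusted p = 9.81e-06). Its other groups lay at the floor, which makes this standard error too small.

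Of 15 transporters of lysosomes and other internal membranes, 9 were tested: 3 rose and 1 fell in TALL-1, 1 fell in RPMI-8402, 1 rose and 2 fell in P12-ICHIKAWA, and 1 rose in SUPT11. Of all tested genes 41.9% were called in TALL-1, 36.6% in RPMI-8402, 7.89% in P12-ICHIKAWA and 1.76% in SUPT11, so the count in TALL-1 is near the background and that in RPMI-8402 below it. SLC38A10 changed most among them, at 3.61 with NVS-ZP7-3 and 5.07 with DMSO in TALL-1 (-1.46 ± 0.28, limma adjusted p = 0.000318) and at 4.82 with NVS-ZP7-3 and 6.34 with DMSO in P12-ICHIKAWA (-1.52 ± 0.28, adjusted p = 0.0016). Of 15 mitochondrial carriers, 13 were tested: 2 rose and 3 fell in TALL-1, where 22.3% of all tested genes rose and 19.6% fell, and 2 rose and 6 fell in RPMI-8402, where 15.1% rose and 21.5% fell. The counts in TALL-1 are near that background. In P12-ICHIKAWA 1 fell, beside 2.98% of tested genes, and in SUPT11 none was called, beside 1.76%. Their median change was -0.2 in TALL-1, -0.27 in RPMI-8402, -0.04 in P12-ICHIKAWA and -0.06 in SUPT11, against medians of 0, -0.02, 0 and 0 over all tested genes. SFXN2, a mitochondrial carrier of the sideroflexin family, fell in TALL-1 to 9.23 with NVS-ZP7-3, against 10.24 with DMSO (-1.01 ± 0.099, adjusted p = 1.71e-07).

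**Figure D4:**
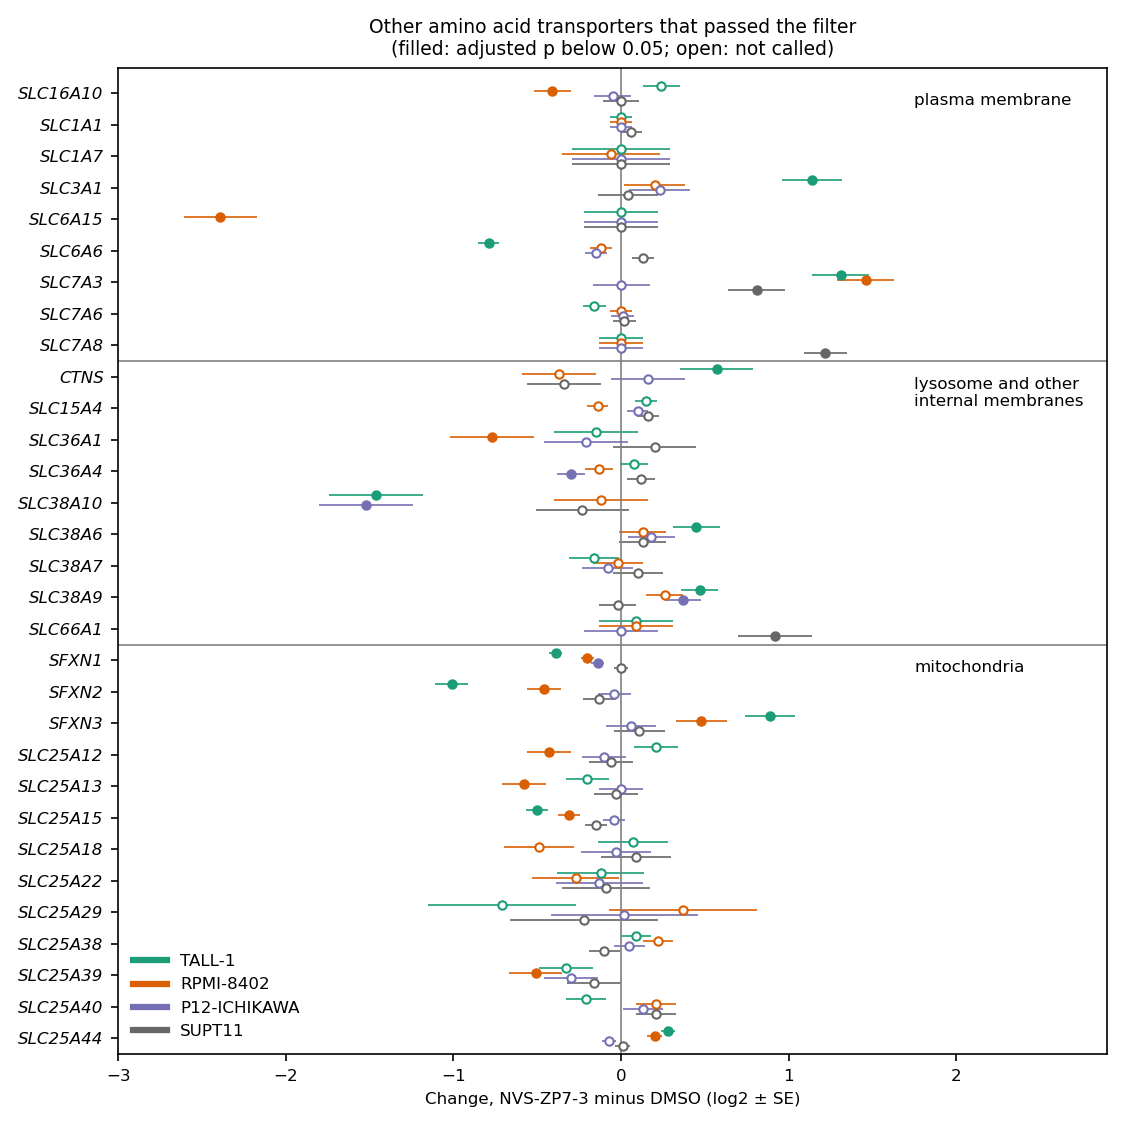
Change (NVS-ZP7-3 minus DMSO, log2 ± SE of the limma fit) of the 31 further listed transporters and mitochondrial carriers that passed the filter, by membrane. Filled points have an adjusted p below 0.05. SLC7A3 lies above 0 in TALL-1, RPMI-8402 and SUPT11, SLC6A15 lies at -2.39 in RPMI-8402, and 6 of 13 mitochondrial carriers fell in RPMI-8402, beside 21.5% of all tested genes.

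Among the genes of amino acid stress signalling, 10 of 13 rose and 1 fell in both TALL-1 and RPMI-8402, 9 rose in P12-ICHIKAWA and 2 rose in SUPT11. Of all tested genes 22.3% rose in TALL-1, 15.1% in RPMI-8402, 4.91% in P12-ICHIKAWA and 1.18% in SUPT11. The list was chosen with earlier results of these data known, so these counts are a description and no test of the list. In P12-ICHIKAWA, with its 9 called stress genes, SLC3A2, SLC7A5 and SLC1A5 were not called. ASNS, the asparagine synthetase and a textbook target of ATF4, was not called in any line: its changes were -0.7 in TALL-1, 0.79 in RPMI-8402, 1.14 in P12-ICHIKAWA and 0.18 in SUPT11 (limma adjusted p between 0.0567 and 1).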

How the data were processed

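The deposited table holds log2 values of 54675 probe sets on 24 arrays, made by the authors. Per the labels' protocols, RNA was isolated with a Qiagen RNeasy kit and labelled with biotin by the Affymetrix 3' Plus protocol. Per the submitters' processing notes, GCRMA and limma were used, and versions and settings are not given in the sources used here. GCRMA removes background, normalizes between arrays and leaves undetected probe sets at a floor, so changes that reach the floor are understated. On each array, 52.4 to 53.9% of probe sets lay within 0.1 of it. No scanner files were used, so another background correction and scan batches could not be tried. The values have no counts, and the number of arrays limits the precision.

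Probe sets were named from the platform annotation, with symbols updated through RefSeq (GRCh38.p14): 41097 named 1 gene, 1801 several and 11777 none, and 41043 of the first kind matched RefSeq. The brightest probe set over the 24 arrays stood for each of 19775 genes, and 10661 genes that reached log2 4 on 3 arrays or more were tested. In limma 3.58.1 (R 4.3.3) a linear model estimated 8 group means from the 24 arrays, with moderated tests on 16 residual degrees of freedom. Benjamini-Hochberg adjustment ran over all 10661 genes. A group at the floor hardly varies, which makes standard errors too small for genes at the floor in some lines, such as SLC7A2 and SLC43A1. The steps were tested on simulated data.

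The members and the gene lists were chosen with earlier results of these data known. All 10 members are named. Other transporters are named where called with a change of at least 1 in a line, with up to 6 per list. Likeness is the Euclidean distance over the 4 changes, for members with a change of at least 1 other than SLC7A2, which lay at the floor in 3 lines. Alternative settings changed the filter, averaged the probe sets of a gene, quantile-normalized the arrays, centred them on their medians, added an intensity trend, took the replicate number as a block, lowered the threshold to 0.01, fitted 1 line, used another probe set or left out 1 array. Settings chosen after seeing the data left out 3 arrays, added the ACTB or HBB covariate, or blocked the replicate number within a line.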

Additional observations from a re-analysis of the deposited data

Results flagged for a closer look

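For 8 of the 10 transporters the change with NVS-ZP7-3 differed between the lines by the F test of the interaction in limma, where 35.8% of all tested genes did. The 8 include SLC7A2, which cannot count as a test, since it passed the filter through the line in which it changed. The range of the change over the 4 lines, highest minus lowest in log2 units, was 3.23 for SLC7A11 (adjusted p = 4.3e-09), with the highest change in RPMI-8402 and the lowest in SUPT11. It was 2.73 for SLC1A4 (adjusted p = 7.74e-14), which fell in P12-ICHIKAWA, and 3.83 for SLC7A2, which lay at the floor in 3 lines and passed the filter through the DMSO arrays of RPMI-8402, so that its range is a description. SLC3A2 had a range of 1.97 (adjusted p = 5.32e-07), SLC1A5 of 1.39 (adjusted p = 0.000922) and SLC7A5 of 0.81 (adjusted p = 3.4e-06), with the higher changes in TALL-1 and RPMI-8402. The ranges of SLC38A1 (0.39, adjusted p = 0.00283) and SLC7A1 (0.27, adjusted p = 0.0104) were small. Groups of 3 arrays were not searched for outlying values of a single transporter, beyond the fits that left out 1 array.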

How the results depend on the processing

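Of 50 values for a transporter in a line or over the mean of the lines, 43 kept their direction and side of the threshold in all settings tried on them, apart from other probe sets and arrays left out. The exceptions were SLC1A4 in TALL-1 and SUPT11, SLC38A2 in TALL-1 and RPMI-8402, SLC7A1 in TALL-1 and RPMI-8402, and SLC43A1 in SUPT11, each a change below 1 and each losing its call somewhere. The transporters called in TALL-1 were 5 with median centring and 5 with the ACTB covariate. In SUPT11 they were 1 with the mean of all probe sets, 1 with an adjusted p below 0.01, 1 in a fit of SUPT11 alone, and 1 to 3 with an array left out, the lowest without the first DMSO or the third NVS-ZP7-3 array of SUPT11. At an adjusted p below 0.01, 434 tested genes were called in P12-ICHIKAWA, 107 in SUPT11 and 2389 for the interaction. Fits of 1 line called 220 genes in P12-ICHIKAWA and 33 in SUPT11, and the HBB covariate left 388 in P12-ICHIKAWA. The main counts were 841 in P12-ICHIKAWA, 188 in SUPT11 and 3818 for the interaction. Signs turned on another probe set without a call for SLC1A4 in TALL-1 (-0.03), P12-ICHIKAWA (0.06) and SUPT11 (-0.39). Array medians differed between NVS-ZP7-3 and DMSO by 0.05 in TALL-1 and at most 0.01 elsewhere, and median centring turned the balance of called genes in TALL-1 to 2033 higher and 2545 lower, against 2377 and 2094 without it.

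Pairing by replicate number was not shown: of 12 same-numbered pairs, 2 had deviations that correlated above 0.1, with a range of -0.14 to 0.42. The highest was that of the third arrays of P12-ICHIKAWA. With 3 arrays per group this check is weak and cannot exclude pairing. With the replicate number as a block SLC43A1 in SUPT11 changed by 0.97 and lost its call (adjusted p = 0.059), which left 2 transporters called there, and no other transporter's call changed. Blocked within each line, 1 was called in SUPT11. Low signal limits SLC7A2 and SLC43A1, whose levels lay at the floor in 3 lines.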
